A study of Mus musculus with 6 samples.

Results

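Schwann nuclei of the lumbar dorsal root ganglion are described here: 197 nuclei of 5786 that passed the filters, or 3.40% (exact Clopper-Pearson 95% interval 2.95 to 3.90). A nucleus was counted when it held at least 1 UMI (unique molecular identifier, 1 per captured transcript) of at least 2 of the 5 Schwann genes Prx, Ncmap, Drp2, Mag and Scn7a. It also had to have at least 500 UMIs, at least 300 genes, a mitochondrial share of at most 5%, at most 1 of the satellite glia genes Fabp7, Kcnj3, Kcnj10, Megf10 and Bcan, at most 1 of the neuron genes Snap25, Syt1, Rbfox3 and Elavl3, and none of Pdgfra, Cdh5 and Csf1r. These measured values chose the nuclei, so the levels of the 17 genes are a description. Differences between these nuclei and others of the same library describe the selection as well and carry no test.

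The ganglion library came from C57BL/6 mice at postnatal day 14 (P14), with 4 males and 4 females pooled, and no treatment or engineered allele is given in the labels. Its title speaks of cells, whereas its RNA is labelled as nuclear, and the median mitochondrial share was 0.0631% against 2.30% to 3.04% in the nerve libraries. The series also holds 5 single-cell libraries of sciatic nerve from C57BL/6 mice, 1 each at P0, P7, P14, P28 and P60, which pooled 13 to 22 animals of both sexes. With 1 ganglion library there is no replicate of these animals, and every interval given for it covers counting error only.

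Schwann cells of spinal nerves and roots follow axons to the border of the ganglion and run between the neuron cell bodies. Some wrap a large axon in compact myelin, whose proteins include PMP22 and MBP, and others hold bundles of small axons without myelin. Satellite glia are the related cells that enclose the sensory neuron bodies. Prx and Drp2 encode proteins of the dystroglycan complex that attaches myelin to the surrounding Schwann cell surface, Mag and Ncmap encode myelin membrane proteins, and Scn7a encodes a sodium channel known from non-myelinating Schwann cells and from sensory neurons.

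The ganglion library held 20845972 UMIs in 5871 barcodes, and the nerve libraries 60763221 to 101441907. The 197 Schwann nuclei held 406615 UMIs, with a median of 1841 per nucleus (504 to 6431) and a median of 1165 genes. The satellite glia nuclei used for comparison were 1466 nuclei with at least 2 of the satellite genes and the mirrored exclusions, with 3877578 UMIs and a median of 2452.5. The 716 neuron nuclei, chosen by at least 2 of the neuron genes in the same manner, had a median of 5199.5 UMIs. Of the ganglion barcodes, 75 (1.28%) also occurred in a nerve library, 5 of them among the Schwann nuclei. A doublet caller, Scrublet, marked 0% of the nuclei at its own threshold and so gave no call. No nuclei were removed as doublets beyond the exclusions of the rule.

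Prx was the marker found most often, in 169 of the 197 nuclei (85.8%). Mag was found in 114 (57.9%), Drp2 in 106 (53.8%), Ncmap in 94 (47.7%) and Scn7a in 48 (24.4%). In satellite glia nuclei Prx was found in 4.09%, Drp2 in 2.11%, Ncmap in 1.09% and Mag in 0.819%, while Scn7a was found in 11.2%. Scn7a was also found in 64.1% of neuron nuclei, so of the 5 genes it was the only one detected more often in neuron than in Schwann nuclei. Neuron nuclei were deeper (medians of 5199.5 against 1841 UMIs), and these shares were not matched for depth. As a share of all UMIs, Scn7a was higher in Schwann nuclei (186 of 406615) than in neuron nuclei (1936 of 5238662). The most frequent combination was Prx, Ncmap, Drp2 and Mag together, in 31 nuclei, followed by Prx, Drp2 and Mag in 23. Markers numbered 2 in 93 nuclei, 3 in 71 and 4 in 33, and no nucleus had all 5. Nuclei with 4 markers were also the deeper ones: the combination of all but Scn7a had a median of 2749 UMIs, against 1633 for Prx with Drp2 alone.

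Just outside the threshold lay 446 nuclei with 1 Schwann marker that passed the exclusions. Scn7a was the marker in 307 of them, Prx in 73, Drp2 in 33, Mag in 19 and Ncmap in 14. On the other side, 436 nuclei had at least 2 Schwann markers, and of these 98 had more than 1 satellite marker, 191 more than 1 neuron marker and 33 a UMI of Pdgfra, Cdh5 or Csf1r. Among the 197 that remained, 88 had no satellite or neuron marker, 77 had 1 satellite marker and 46 had 1 neuron marker.

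**Figure D1:**
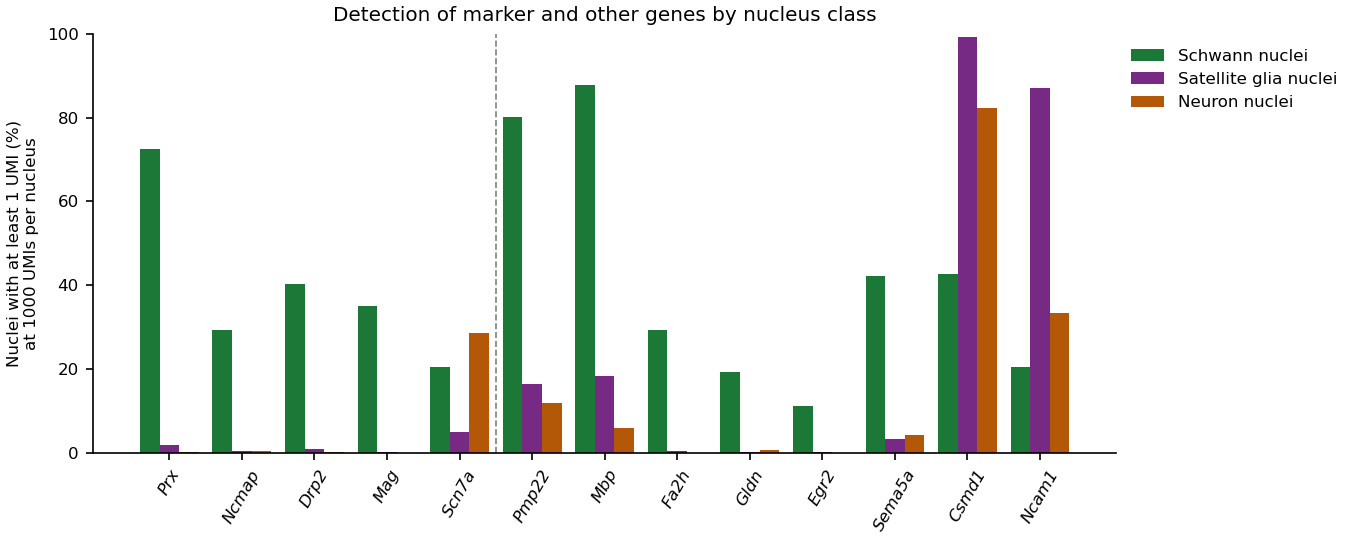
The bars show the share of nuclei (%) with at least 1 UMI of each gene after every nucleus was thinned to 1000 UMIs, in 171 Schwann, 1361 satellite glia and 654 neuron nuclei; the dashed line separates the 5 genes of the rule from genes outside it. Pmp22 was found in 80.1% of Schwann nuclei against 16.3% of satellite glia nuclei, and Csmd1 in 42.7% against 99.1%.

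The myelin genes Pmp22 and Mbp, outside the rule, were also higher in Schwann nuclei. Pmp22 stood at 4036 UMIs scaled to the same total in every class (counts per 1e+06 UMIs, CPM) in Schwann nuclei, 165 in satellite glia nuclei and 101 in neuron nuclei. Mbp stood at 3937, 249 and 44.3 CPM in the same order. Myelin messages are abundant and can also lie free in a nuclear suspension. At 1000 UMIs per nucleus Mbp was found in 87.7% of Schwann, 18.3% of satellite glia and 5.81% of neuron nuclei (91.9%, 40.1% and 20.9% before thinning). Whether its UMIs in satellite glia and neuron nuclei came from free RNA was not tested. Thinning left out 26 Schwann, 105 satellite glia and 62 neuron nuclei that were shallower. Sox10, the transcription factor shared by all peripheral glia, stood at 499 CPM in Schwann nuclei and 479 CPM in satellite glia nuclei, a ratio of 1.04 (0.896 to 1.20), and at 17.4 CPM in neuron nuclei. Pmp22 and Mbp were not used to choose the nuclei, but they are myelin genes as are markers of the rule. Their levels are therefore no independent support for the label. Sox10 marks the nuclei as glial and does not separate Schwann from satellite glia nuclei.

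Against satellite glia, 1491 of 12980 measured genes had a CPM ratio of at least 2 in Schwann nuclei (11.5%) and 1781 a ratio of at most 0.5 (13.7%). Measured means at least 20 UMIs over both classes, the 17 genes of the rule are left out, and the median log2 ratio over all measured genes was 0.08. Scaling by the median of ratios instead of the totals shifted all log2 ratios down by 0.28 and gave 889 higher and 2455 lower genes. The genes named next are from the 20 with the largest and 10 with the smallest ratios, with a minimum of 50 UMIs at the depth of the Schwann nuclei and leaving out predicted genes.

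The amino acid transporter gene Slc36a2 had the largest ratio, 726 against 1.81 CPM or 402-fold (193 to 1008), and was found in 53.8% of Schwann nuclei, 0.477% of satellite glia nuclei and 0.838% of neuron nuclei. Sec14l5, a member of the SEC14-like lipid transfer family, followed at 691 against 1.81 CPM (383-fold, 183 to 961), then Emid1 at 959 against 5.42 CPM (177-fold, 114 to 289). All 3 genes were close to undetected in the other classes, so these ratios rest on few satellite glia UMIs (7 for Slc36a2, 7 for Sec14l5 and 21 for Emid1). Genes of the myelin membrane and of its junctions were also among the 20: Gldn, Fa2h, Nfasc, Cldn19 and Pllp, with ratios of 165, 129, 72.8, 70.3 and 50.1. Fa2h hydroxylates the fatty acids of myelin galactolipids, Cldn19 is a tight junction claudin of the Schwann cell, and Pllp (plasmolipin) is a proteolipid of myelin.

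Further genes of this group have other roles. Pou3f1, the POU factor of Schwann cells that are about to myelinate, stood at 280.4 against 4.13 CPM (67.9-fold, 40.1 to 123). Gfra1, a co-receptor for GDNF family ligands, stood at 1335 against 28.9 CPM (46.2-fold, 37.7 to 57.2) and was found in 62.9% of Schwann, 6.28% of satellite glia and 19.8% of neuron nuclei. Arhgap19, a GTPase-activating protein, and Il16, a cytokine precursor, had ratios of 121 and 116. Ecscr, Slc9a3, Fam178b, Filip1, Hecw2, Stxbp6 and Septin3 had ratios of 42.9 to 77.7. Il16 overlaps the coding gene Stard5 and Ecscr overlaps 1700066B19Rik on the opposite strand in the GENCODE M21 annotation, and whether the counting used strand is not given in the sources used here.

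At the other end, the 10 smallest ratios lay between 0.0587 and 0.0929. Ctnnd2 (delta-catenin) stood at 352 CPM in Schwann nuclei against 3845 in satellite glia nuclei, the bicarbonate cotransporter Slc4a4 at 140.2 against 1526, and Astn2 at 108 against 1165. Glutamate receptor genes were among them, with Grid1 at 73.8 against 801 CPM and Grik3 at 19.7 against 297 CPM. So was the Notch target Hey2, at 19.7 against 284 CPM. Eps8, Shank2, Myo16 and Kctd1 completed the group. Neuron nuclei held between 5.34 CPM (Myo16) and 688 CPM (Ctnnd2) of these 10 genes.

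**Figure D2:**
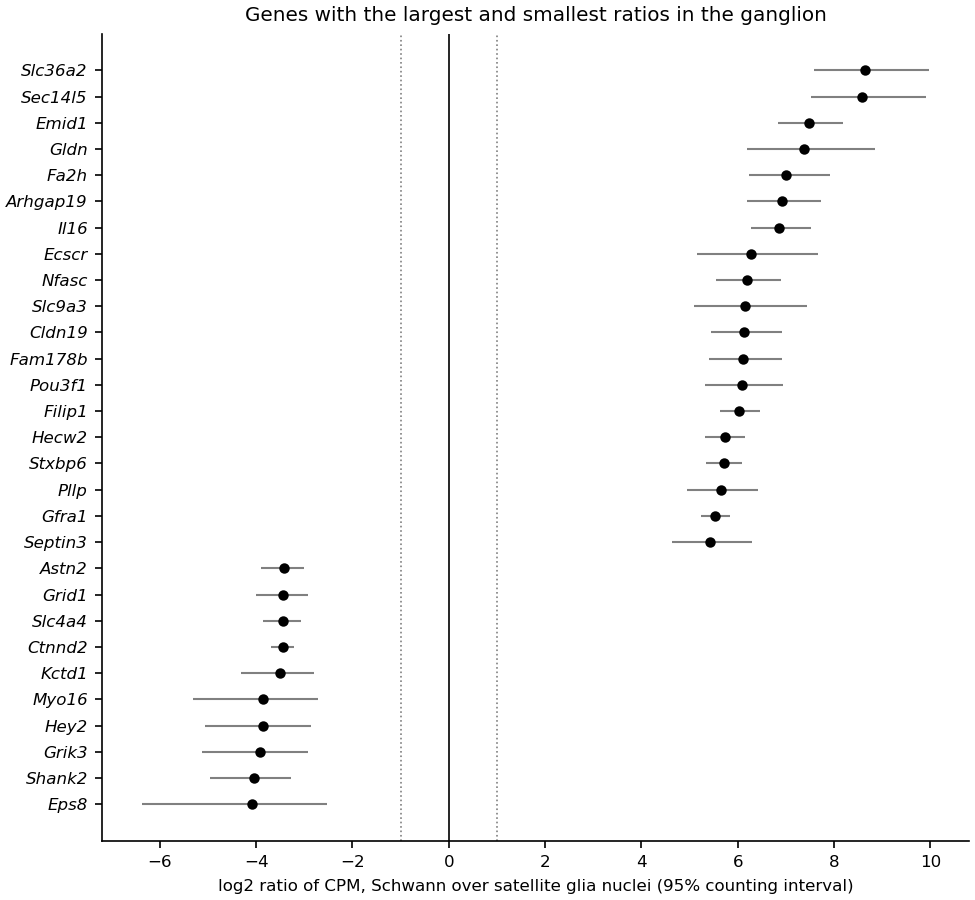
Points show the log2 ratio of CPM in 197 Schwann over 1466 satellite glia nuclei for genes with the largest and the smallest ratios, bars the 95% counting interval, and dotted lines a 2-fold difference. The ratios run from 402 for Slc36a2 down to 0.0587 for Eps8.

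The counts of the lists below stand against all 12980 measured genes, of which 11.5% were at least 2-fold higher and 13.7% at most 0.5. With the median-of-ratios scaling 889 of all genes were higher and 2455 lower. Compact myelin genes were the list that stood furthest above all genes. Of 12 measured members 10 had a ratio of at least 2 and none a ratio of at most 0.5, with a median log2 ratio of 3.47 against 0.08 over all measured genes; the counts were the same with the median-of-ratios scaling. Besides Pmp22 (24.5-fold) and Mbp (15.8-fold), the raft protein Mal stood at 509 against 50.5 CPM and Ugt8a, which makes galactosylceramide, at 595 against 76.9 CPM. Cmtm5 lay between the limits at 0.696-fold. Pmp2, the myelin fatty acid binding protein, was at 0 UMIs in the Schwann, the satellite glia and the neuron nuclei alike.

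Proteins outside compact myelin, at Schmidt-Lanterman incisures, Cajal bands and the outer surface, were mixed: 6 of 14 measured genes were at least 2-fold higher and 1 at most 0.5. Utrn (utrophin), which links dystroglycan to actin, stood at 4139 against 809 CPM (5.12-fold, 4.82 to 5.43), whereas its relative Dmd was not higher (2049 against 2953 CPM, 0.694-fold). Cnp stood at 674 against 49.8 CPM and the connexin gene Gjc3 at 625 against 101 CPM. At nodes and paranodes 3 of 11 genes were at least 2-fold higher, Gldn, Nfasc and Ank3. Gliomedin, the product of Gldn, gathers sodium channels at nodes of Ranvier, and the glial form of neurofascin lies at paranodes. Ank3 was also abundant in neuron nuclei (3012 CPM, against 1921 in Schwann and 260.2 in satellite glia nuclei).

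Of 18 measured genes in which mutations cause Charcot-Marie-Tooth neuropathy, 5 were at least 2-fold higher and none at most 0.5. Among them were Pmp22, Egr2 (32.9-fold), Sh3tc2 (2.99-fold, 2.38 to 3.73) and Sbf2 (2.29-fold, 1.97 to 2.64). Of the 5 genes 4 stayed past 2-fold with the median-of-ratios scaling. Sh3tc2 and Sbf2 encode regulators of membrane traffic in Schwann cells. Prx belongs to the same disease group and is a gene of the rule (1333 against 18.1 CPM). The other 13 lay between the limits, among them Ndrg1 at 428 against 359 CPM.

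Transcription factors divided into groups. Egr2, which drives myelin genes, stood at 93.5 against 2.84 CPM (16.5 to 71.5 around 32.9-fold), and its cofactor Nab2 at 59.0 against 16.2 CPM. In total 4 of 20 measured factors were at least 2-fold higher and 8 at most 0.5, against 11.5% and 13.7% of all measured genes. The lower ones included Sox2 (29.5 against 119.9 CPM), Jun (44.3 against 169 CPM), Tfap2a (9.84 against 74.5 CPM), genes known from immature Schwann cells or earlier glial precursors. Immediate early genes were also on that side: Fos stood at 66.4 against 212 CPM, Egr1 at 39.3 against 176 CPM, and 4 of 11 measured genes of the immediate early and heat shock list had a ratio of at most 0.5. Transcription set off during dissociation could differ between classes, and its part was not tested.

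Semaphorins, which are guidance cues read by plexins and neuropilins, went both ways. Of 17 measured genes 6 were at least 2-fold higher and 4 at most 0.5, against 11.5% and 13.7% of all measured genes. Sema5a was the most abundant, at 1013 against 32.5 CPM (31.2-fold, 25.5 to 38.4), and Sema6c had the largest ratio at 48.9 (22.6 to 121). Sema4g and Sema4c had ratios of 13.96 and 11.9, and Sema6d 3.37. Sema3b, the class 3 semaphorin in the title of the study, stood at 167 CPM (68 UMIs) in Schwann nuclei, 59.3 in satellite glia nuclei and 5.92 in neuron nuclei, a ratio of 2.82 (2.12 to 3.71). Sema6a (95.9 against 362 CPM) was on the lower side. The lower genes numbered 7 with the median-of-ratios scaling. Among 11 receptors 3 were at least 2-fold higher, led by Plxnb1 at 91.0 against 17.8 CPM, and Plxna2 was the 1 gene at most 0.5. Of the other guidance genes, 7 of 18 were higher, including Slit2 at 320 against 45.4 CPM (7.04-fold, 5.57 to 8.89), and 4 were lower, including the netrin receptor Dcc at 9.84 against 92.1 CPM. With the median-of-ratios scaling these counts were 5 and 6.

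The potassium channel Kcna1 and the two-pore channel Kcnk1 led the ion channels, at 29.8-fold (1212 against 40.7 CPM) and 28.6-fold (73.8 against 2.58 CPM). Of 27 measured channel and pump genes 7 were at least 2-fold higher and 5 at most 0.5, against 11.5% and 13.7% of all measured genes. With the median-of-ratios scaling 4 were higher and 9 lower, against 889 and 2455 of all 12980 genes. Kcna2 stood at 332 against 125 CPM. Slc4a4 was the lowest. For the basal lamina, the sheet of laminin and collagen around each Schwann cell, the perlecan gene Hspg2 stood at 492 against 93.4 CPM (5.27-fold). The laminin receptor pair Itga6 and Itgb4 had ratios of 4.48 and 3.91, while Itga7, another laminin receptor subunit, stood at 56.6 against 213 CPM. The main laminin and collagen IV chains were at similar levels: Lama2 had a ratio of 0.935 (0.861 to 1.01) and Col4a1 0.984 (0.799 to 1.20), while the laminin gene Lamb2 was just past the limit at 2.01 (1.09 to 3.47). In all 4 of 20 were higher and 3 lower, or 3 and 4 with the median-of-ratios scaling, against 11.5% and 13.7% of all measured genes.

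Sterol and fatty acid synthesis, which supplies myelin lipids, was at similar levels in both glial classes. Of 28 measured genes 1 was at least 2-fold higher, 5 were at most 0.5 and 22 lay between, with a median log2 ratio of -0.18. Of all measured genes 11.5% were higher and 13.7% lower by these limits. Cyp51, an enzyme of the late cholesterol pathway, stood at 140.2 against 141 CPM. The exception upwards was Elovl1, which elongates very long chain fatty acids, at 204 against 56.5 CPM (3.61-fold, 2.77 to 4.67). Elovl5 was the lowest, at 34.4 against 140.0 CPM.

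Receptors for axonal signals showed 1 of 16 genes at least 2-fold higher, Ntrk3 at 162 against 35.3 CPM, and 7 at most 0.5. Tgfbr2 lay just under the limit at 2.00-fold. The neuregulin receptors Erbb2 and Erbb3 lay between the limits, with Erbb3 at 192 against 191 CPM. The adhesion receptor Adgrb3 stood at 753 against 4679 CPM and Fgfr1 at 93.5 against 648 CPM. Of 25 measured genes on the satellite glia list, leaving out those of the rule, 10 were lower and 1 was higher. The higher one was Pou3f1, whose place on this list conflicts with its Schwann cell role and its ratio given above. Ptprz1 stood at 197 against 1568 CPM and Apoe at 3067 against 8130.3 CPM. Of 17 genes known from non-myelinating Schwann cells, 9 had a ratio of at most 0.5 and none a ratio of at least 2, with Csmd1 at 2269.96 against 13342 CPM and Ncam1 at 438 against 2308 CPM. These lists share members, such as Ptn and Cadm2, and both hold genes that satellite glia express.

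**Figure D3:**
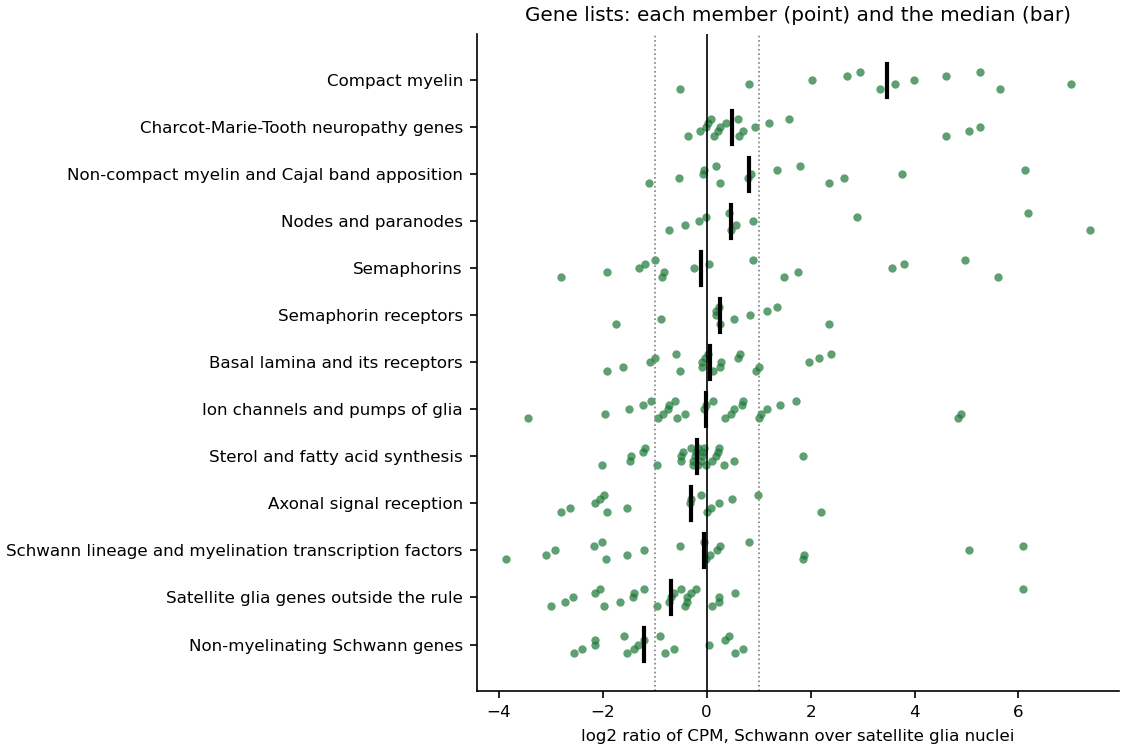
Each point is 1 measured gene of a list, plotted by the log2 ratio of its CPM in Schwann over satellite glia nuclei, and the black bar is the list's median; dotted lines mark 2-fold. Compact myelin has its median at 3.47 and the genes known from non-myelinating Schwann cells theirs at -1.21.

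Markers of other cells were present. The summed level of 16 neuron genes was 2147 CPM in Schwann nuclei, 1714 in satellite glia nuclei and 4302 in neuron nuclei, and 1 of the 16, Th, was at 0. Single messages such as Nefl (271, 209.9 and 164 CPM) and Calca (261, 209 and 186 CPM) were no higher in neuron nuclei than in either glial class, unlike the list as a whole. The 10 mesenchymal genes summed to 1616 CPM in Schwann and 723 CPM in satellite glia nuclei, none at 0, with Col1a1 at 4.19-fold, Col3a1 at 3.12-fold and Col1a2 at 2.47-fold. The perineurial list summed to 484 against 222 CPM, with 2 of 10 at 0. Endothelial and mural genes summed to 56.6 against 66.0 CPM and macrophage and lymphocyte genes to 46.7 against 64.0 CPM, and of the latter 5 of 10, among them Ptprc and Cd68, were at 0 in Schwann nuclei. The part of these cells, or of free RNA from them, in the ratios above was not tested.

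The 197 nuclei were not uniform. The share of a nucleus's UMIs that fell on Pmp22 and Mbp, called the myelin share here, had a median of 0.817% and ran from 0% to 3.04%. Its median was 0.0302% in satellite glia nuclei and 0.00438% in neuron nuclei. It was at least 1% in 70 of the 197 nuclei, in 1 of 1466 satellite glia nuclei and in 0 of 716 neuron nuclei. Nuclei without Scn7a had a median of 0.907%, and 64 of 149 reached 1%. Among the 48 nuclei with Scn7a the median was 0.173%, and 6 reached 1%.

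These 48 nuclei differed by the number of other markers they held. The rule asks a nucleus without Scn7a for 2 of the 4 myelin-related markers and a nucleus with Scn7a for only 1, so the choice of nuclei fixes part of the difference in myelin genes. The 32 nuclei with Scn7a and 1 other marker had a median myelin share of 0.110%, and 1 reached 1%. The 16 nuclei with Scn7a and at least 2 others had a median of 0.837%, and 5 reached 1%, against the median of 0.907% in nuclei without Scn7a. The shares of these 2 sets overlapped, with 0% to 1.45% in the former and 0.0486% to 1.84% in the latter. Outside the rule, the median was 0.0316% in the 307 nuclei with Scn7a alone, none of which reached 1%, and 0.0438% in the 139 nuclei with 1 other marker alone, of which 8 did.

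**Figure D4:**
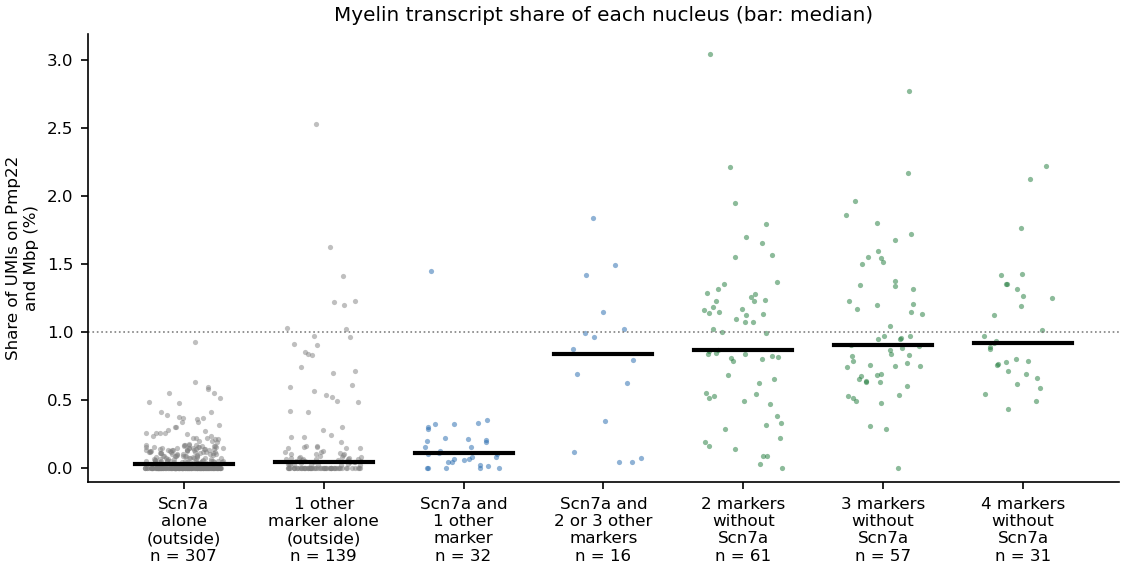
Each point is 1 nucleus, plotted by the share of its UMIs on Pmp22 and Mbp (%), grouped by the markers detected; bars are medians and the dotted line marks 1%. Nuclei with Scn7a and 1 other marker (median 0.110%) lie near the nuclei outside the rule, and those with Scn7a and at least 2 others (0.837%) near the nuclei without Scn7a.

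Nuclei with and without Scn7a had similar depths, with medians of 1924 and 1818 UMIs. Of 4246 genes with at least 20 UMIs, 463 were at least 2-fold higher in Scn7a-carrying nuclei (10.9%) and 581 at most 0.5 (13.7%). The median-of-ratios scaling lowered the log2 ratios by 0.47 and gave 215 and 1123. Among genes with at least 30 UMIs in the class where they were higher, Adgb and Chl1 had the largest ratios. Adgb had 33 UMIs in carrying nuclei and 0 in the others. Its ratio was 33.1 with the others set to a floor of 3 UMIs over the class (log2 5.05, lower interval limit 4.67). Chl1, an adhesion molecule of the L1 family, stood at 463 against 19.7 CPM (23.6-fold, 10.05 to 67.4). Then came Abca8b (15.9-fold), Cdh20 (14.2-fold), Ntrk3 (13.5-fold), Sox6 (11.3-fold), Slc35f1 (10.5-fold), Cadm2 (8.46-fold), Tspan18 (8.10-fold) and Sgcz (7.82-fold). Of 10 measured genes known from non-myelinating Schwann cells 8 were at least 2-fold higher and none lower, against 10.9% of all genes. Csmd1 stood at 6526 against 855 CPM and Ncam1 at 1183 against 190.06 CPM.

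Of the 10 genes named for the largest ratios 7 stood at a lower CPM in the 197 nuclei as a whole than in satellite glia nuclei. Slc35f1 stood at 3194 CPM in carrying nuclei, 305 in the other Schwann nuclei, 3205 in satellite glia nuclei and 2545 in the 307 nuclei with Scn7a alone. Ntrk3 went the other way, with 532 CPM in carrying nuclei against 39.3 in the others and 35.3 in satellite glia nuclei, although neuron nuclei held 185 CPM. The summed level of 26 satellite glia genes outside the rule was 10636 CPM in carrying nuclei, 5046 in the others and 15495 in satellite glia nuclei. Neuron genes summed to 2395 against 2064 CPM and mesenchymal genes to 2769.95 against 1232 CPM, with Lum and Dpt at 0 in carrying nuclei. Their part in the difference was not tested.

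Within the 16 nuclei that carried Scn7a and at least 2 other markers, several of these genes were still higher than in Scn7a-free nuclei. Slc35f1 stood at 1832 against 305 CPM (6.01-fold, 4.29 to 8.38), Abca8b at 621 against 65.5 CPM (9.47-fold, 4.88 to 18.4), Cdh20 at 12.9-fold (4.43 to 39.9), Ntrk3 at 8.27-fold (3.31 to 20.5) and Sox6 at 6.44-fold (3.09 to 13.1). Csmd1 was 2.52-fold higher (1.92 to 3.28). Tspan18 was 6.94-fold higher (2.72 to 17.1). Cadm2 was not higher (29.6 against 105 CPM, from 1 UMI). The intervals of Chl1 (4.51-fold, 0.730 to 21.1) and Sgcz (1.80-fold, 0.335 to 6.38) included 1. Adgb had 2 UMIs against 0, too few for a ratio. Of 3516 genes measured in this comparison 336 were at least 2-fold higher (9.56%) and 573 at most 0.5 (16.3%). Of the 12 measured compact myelin genes 1 was at most 0.5 in these 16 nuclei, against 8 of 12 in all carrying nuclei, and Pmp22 stood at 3812 against 4810.4 CPM (0.793, 0.657 to 0.949). This comparison, chosen after the data had been seen, sets the same minimum of other markers in both classes but not the same number: 3 or 4 of them were found in 57 and 31 of the 149 Scn7a-free nuclei, and 3 in 2 of the 16.

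With the same minimum of 30 UMIs, the genes lowest in carrying nuclei were Galnt16, Epha6, Zswim5, Ddx42, Fndc1, Sptbn5, Chd3, Zmat4, Nfasc and Vit, each with 1 to 5 UMIs there and 30 to 163 UMIs in the others. Nfasc, the best counted, stood at 49.3 against 534 CPM, a ratio of 0.0923 (0.0296 to 0.220). Sptbn5 overlaps the coding genes Gm28042 and Pla2g4b. In total 6 nuclei had UMIs of at least 2 of the replication and mitosis genes, 5 of them among the 48 with Scn7a (10.4%, 3.47 to 22.7) and 1 among the 149 without (0.671%, 0.0170 to 3.68). The share was 5.25% in satellite glia nuclei and 6.84% in neuron nuclei, which were deeper (medians of 2452.5 and 5199.5 UMIs) and whose shares were not matched for depth. Per UMI the order was different: the 16 genes summed to 729 CPM in carrying nuclei, 65.5 in Scn7a-free nuclei, 213 in satellite glia nuclei and 61.3 in neuron nuclei. Top2a, a topoisomerase of dividing cells, was the 1 gene of the list with enough UMIs for a ratio. It had 23 UMIs in carrying nuclei, found in 8.33% of them, and 0 in the others. Its ratio was 23.1 with the others set to the floor of 3 UMIs over the class. In the nerve 11 of 13 tested replication and mitosis genes were higher in carrying cells and none lower, by the test described next. The shares over all genes tested were 14.1% higher and 13.8% lower. With carrying cells held to at least 2 of the other markers, 7 of 9 were higher and none lower, against 9.54% and 9.13% of all genes. Whether these nuclei were cycling was not tested.

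The nerve libraries allow a test with replication over libraries. The same rule, with a mitochondrial share of at most 20% for whole cells, found 542 to 5859 Schwann cells per nerve library, of which 25.8% to 78.8% carried Scn7a. For each library the UMIs of either class were added up, and the sums were compared within libraries by edgeR's quasi-likelihood test. Of 10461 genes tested 1472 were higher (14.1%) and 1447 lower (13.8%) in Scn7a-carrying cells at an adjusted p under 0.05. The compared sums share their animals, and without this pairing 400 were higher and 307 lower. Without P7 the counts were 911 and 939, and without P14 946 were lower. Carrying cells were shallower, with medians of 2399 to 7122.5 UMIs against 3517.5 to 9131.5 for the others, and the part of depth was not tested.

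Of the 10 genes named for the largest ratios in the ganglion split, 8 could be tested in the nerve, and 6 were higher and none lower. Of all genes tested 14.1% were higher and 13.8% lower. The same rule chose nuclei and nerve cells, so both splits share its imbalance in the other markers. In nerve cells Chl1 stood at 146, 137, 479, 753 and 1003 CPM in carrying cells from P0 to P60, and at 62.0, 7.01, 1.97, 6.57 and 6.68 CPM in the others. Every carrying value exceeded every other value, with a log2 fold change of 4.63 (SE 0.958, higher in 5 of 5 libraries, edgeR adjusted p 0.0127). Slc35f1 stood at 253, 205, 351, 287 and 307 CPM against 105, 20.3, 15.1, 11.2 and 11.7 CPM, again without overlap (log2 fold change 3.26, SE 0.535, higher in 5 of 5 libraries, edgeR adjusted p 0.00607). Abca8b, Ntrk3, Sox6 and Tspan18 were also called, with log2 fold changes of 3.85, 3.52, 2.76 and 2.01. Cdh20 (1.37, adjusted p 0.0583) and Cadm2 (2.51, adjusted p 0.148) did not pass edgeR's test, whereas DESeq2 called both (adjusted p 0.0181 and 0.00694). Without the pairing Tspan18 was not called (edgeR adjusted p 0.0970), whereas Cadm2 was (edgeR adjusted p 0.0382).

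Of the 10 genes named for the smallest ratios, 6 could be tested in the nerve, and by edgeR 2 were lower and none higher, against 13.8% and 14.1% of all genes tested. Fndc1 went against the ganglion, with a log2 fold change of 1.00 (SE 0.492, higher in 4 of 5 libraries, edgeR adjusted p 0.183). DESeq2 called it higher (1.19, adjusted p 0.0476), as did edgeR with genes of at least 1 UMI (0.97, adjusted p 3.42e-07). That edgeR fit held 28910 genes in place of 10461. Its fold change was close to the 1.00 of the main fit, so it was mainly the p-value that moved. Nfasc stood at 2.90, 48.7, 53.5, 77.2 and 59.7 CPM in carrying cells and at 12.3, 118, 208, 171 and 217 CPM in the others from P0 to P60. It was lower in carrying cells in each library, although the P0 value of the other cells lay below the later carrying values. Its log2 fold change was -1.80 (SE 0.158, edgeR adjusted p 0.00134), and Galnt16 stood at -1.30 (SE 0.270, edgeR adjusted p 0.0113), lower in 5 of 5 libraries. Without the pairing Nfasc was not called (-1.75, edgeR adjusted p 0.237).

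Over the lists, 15 of 16 tested non-myelinating Schwann genes were higher in carrying nerve cells and none lower, and 12 of 13 compact myelin genes were lower and none higher. Of all genes tested 14.1% were higher and 13.8% lower. The choice of cells fixes part of this difference in myelin genes. Carrying cells were then held to at least 2 of the other markers, a comparison added after the data had been seen. There 949 genes were higher (9.54%) and 908 lower (9.13%) of 9950. Of the lists, 11 of 14 non-myelinating genes were higher and 12 of 13 compact myelin genes lower. As in the ganglion, this equalizes only the minimum of other markers. At least 3 were found in 515 of 1425 Scn7a-free cells at P0 and 3861 of 4350 at P7. From P14 to P60 they were found in 235 of 271, 330 of 418 and 99 of 115. The part of the marker number in the lower myelin genes was not tested. In this comparison Chl1 no longer passed (log2 fold change 4.32, edgeR adjusted p 0.0727), while Slc35f1, Abca8b, Ntrk3, Sox6 and Tspan18 did. In the nerve 20 of 28 sterol and fatty acid synthesis genes were lower in carrying cells, against 13.8% of all genes. In the ganglion split 3 of 21 were at least 2-fold higher and 2 at most 0.5, or none and 7 with the median-of-ratios scaling, against 10.9% and 13.7% of all genes. Basal lamina genes were higher in 13 of 21 in the nerve, against 14.1% of all genes. In the ganglion split 6 of 18 were at least 2-fold higher, against 10.9% of all genes, and the median-of-ratios scaling left none higher and 2 lower.

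**Figure D5:**
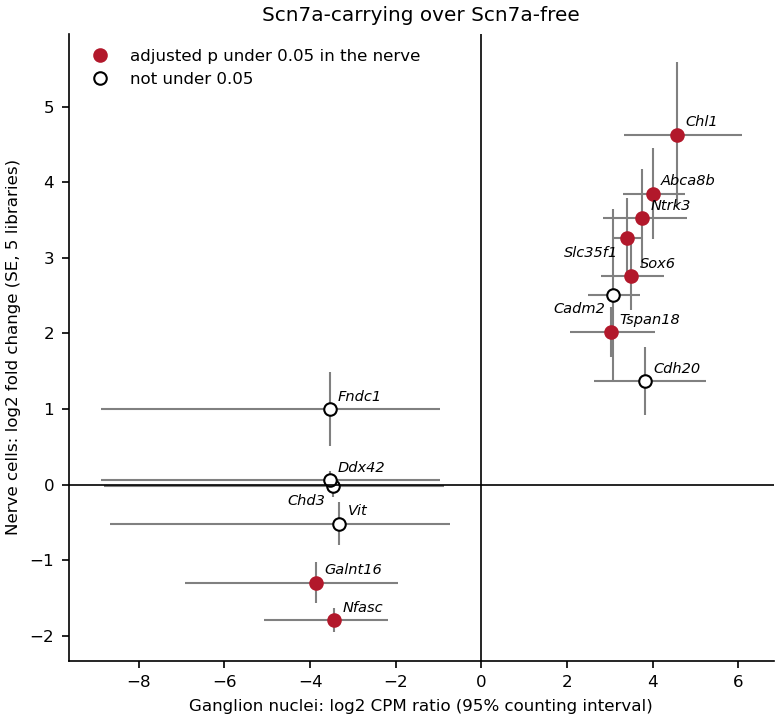
Genes with the largest and smallest ratios (at least 30 UMIs) between Scn7a-carrying and Scn7a-free Schwann nuclei of the ganglion (x axis, log2 CPM ratio with 95% counting interval) are plotted against the log2 fold change of the same split in nerve cells (y axis, SE, 5 libraries). The 6 called genes on the right are higher in both, and Nfasc and Galnt16 are lower in both.

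Levels in nuclei of the ganglion and in whole cells of the nerve are given side by side only, since tissue, preparation and software version all differ. The nerve ranges run over all ages from P0 to P60, P14 included. Scn7a was carried by 25.8% to 78.8% of the nerve Schwann cells and by 24.4% of the ganglion Schwann nuclei. Pmp22 stood at 4036 CPM in the ganglion Schwann nuclei and between 3293 and 19064 CPM in the nerve libraries, and Prx at 1333 against 465 to 1540.2 CPM. Kcna1 lay in the nerve range too, at 1212 against 367 to 1422 CPM. Sema3b was below it, at 167 against 270.5 to 625 CPM, as were Egr2 (93.5 against 113 to 388 CPM) and Pou3f1 (280.4 against 614 to 1319 CPM). Genes above the nerve range included Gfra1 (1335 against 16.5 to 37.0 CPM), Sec14l5 (691 against 6.11 to 54.1 CPM), Hecw2 (792 against 3.28 to 33.9 CPM) and Sema5a (1013 against 7.21 to 162 CPM). Tissue and preparation cannot be told apart here.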

How the data were processed

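The authors deposited, for every library, gene-by-barcode UMI counts of called barcodes. Per the file headers, Cell Ranger 7.1.0 made the ganglion counts, 7.0.0 those at P7 and 5.0.1 the other nerve counts; the submitters' processing notes name Seurat and mm9, and 52081 of the 55357 ganglion gene identifiers are in GENCODE M21. Whether intronic reads were counted is not given in the sources used here.

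From these counts, nuclei were filtered and classed by the rule, and UMIs were summed per class and divided by the class total (CPM). Ratios carry exact conditional binomial 95% intervals, CPM exact Poisson and shares exact Clopper-Pearson intervals; a count of 0 was set to 3 UMIs, and PCR or capture effects are not covered. Neither ratio has a p-value, since the ganglion is 1 library. Shares were compared after thinning to 1000 UMIs. Nerve sums were tested in R 4.3.3 by edgeR 4.0.16 (filterByExpr, TMM, library and class, robust quasi-likelihood, two-sided, Benjamini-Hochberg at 0.05, n = 5 libraries, at least 20 cells per class); TMM factors of Scn7a-carrying sums exceeded the others by 0.20 (mean log2), and fold changes are lower to that extent. The SE is the log2 fold change divided by the square root of F. The library is the pairing block, because both sums come from the same animals. DESeq2 1.42.0 was an alternative. The scripts were tested on simulated counts.

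Genes were named by rank of the ratio, a few are not reported here, and the 28 lists hold 395 genes, 393 of them matched. The nuclei, the lists and the tests were chosen with earlier results of these data known. Alternatives were other marker numbers, stricter exclusions, Scrublet in scanpy 1.11.5, at least 1000 UMIs, another satellite definition, scaling, UMI minimum and averaging, and leaving out each nerve library.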

Additional observations from a re-analysis of the deposited data

How the results depend on the processing

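The count of Schwann nuclei was 104 with at least 3 markers and 88 with no satellite or neuron marker allowed. Genes higher than in satellite glia numbered 889 with median-of-ratios scaling, 3372 with no UMI minimum and 554 with at least 100 UMIs, where 858 were lower. In the Scn7a split of the ganglion, higher and lower genes numbered 218 and 309 with at least 3 markers, 191 and 227 without satellite or neuron markers, 215 and 1123 with median-of-ratios scaling, 2948 and 1191 with no minimum, and 61 and 105 with at least 100 UMIs. In the nerve, 2322 were higher with genes of at least 1 UMI, 949 higher and 908 lower with carrying classes held to at least 2 other markers, and without the pairing block 400 and 307. Leaving out 1 library gave 911 to 1486 higher and 939 to 1448 lower.

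Some single genes changed sign. Cadm2 stood at a log2 ratio of -1.87 with at least 3 markers and -1.83 with at least 2 other markers, and Sgcz at -0.029 without satellite or neuron markers. In the nerve Chd3 stood at 0.26 with at least 3 markers, 0.052 with at least 2 other markers and, with 1 library left out, between -0.19 and 0.024 (without P14). Ddx42 lay between -0.026 (without P14) and 0.12 with 1 library left out, and at -0.0073 without P7. The cause was not tested. Among the limits is depth: 406615 UMIs over 197 nuclei leave many genes at a few UMIs, and the 48 Scn7a-carrying nuclei hold 101446.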
